A study of Mus musculus with 6 samples.

Results

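The genes described here encode the elastic fibre and the enzymes that crosslink it. They are the 10 genes Eln, Fbn1, Fbn2, Mfap2, Mfap4, Mfap5, Fbln5, Lox, Loxl1 and Loxl2, chosen by symbol from a deposited table of 14366 genes, and all 10 were found in it. RNA had been sequenced from whole mesonephroi of male mice at embryonic day 16.5, the tissue that holds the Wolffian duct, its mesenchyme and, in this dissection, the region of the mesonephric tubules. The 3 Gata2cKO samples carried Osr2Cre and 2 floxed Gata2 alleles (Osr2Cre+;Gata2-flox/flox). The 3 control samples also carried Osr2Cre, with 1 floxed and 1 unfloxed allele (Osr2Cre+;Gata2-flox/+), so both groups hold the recombinase and at least 1 allele that it can delete. The Osr2 promoter was used to drive deletion in mesenchyme, and cells without the recombinase were sequenced along with the rest. The comparison addresses the role of the transcription factor Gata2 in that mesenchyme.

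Elastic fibres let a tissue stretch and recoil. Cells secrete fibrillins, which assemble into microfibrils, and tropoelastin (the Eln product) is laid onto this scaffold with the help of fibulins. Lysyl oxidases, copper enzymes, then oxidize lysines in elastin and collagen so that the chains become crosslinked. In ducts and vessels these fibres are made mainly by mesenchymal cells and smooth muscle.

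Values are TPM, a unit that corrects for the length of each gene and sets each library to nearly the same sum, so levels can be set side by side between genes. The read depth behind each value is unknown, and the spread between libraries is the measure of error. The labels do not say whether the samples came from separate embryos or litters, so the p-values reflect only the variation among these 6 samples, which may be technical. Gata2 stood at 431, 530 and 416 TPM in Gata2cKO replicates 1, 2 and 3, against 384, 464 and 546 TPM in control replicates 1, 2 and 3, and the groups overlapped. Exon-level values were not analysed here, so this value does not check the labels, and every direction given rests on them. Markers of the labelled tissue were present, among them Tcf21 at means of 449 and 766 TPM and Emx2 at means of 159 and 132 TPM in Gata2cKO and control. Pax2 was low, with means of 2.38 and 2.12 TPM, and Ret averaged 0.303 and 0.181 TPM in Gata2cKO and control. Control replicate 1 stood apart, with 21.9% of its TPM in mitochondrially encoded transcripts, against 13.2% to 15.2% in the Gata2cKO libraries and 14.2% and 16.3% in the other controls. Where a call or a sign among the 10 genes rests on that library, the value without it is given.

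Of the 10 genes, 4 rose in Gata2cKO and 0 fell, at an adjusted p under 0.05 in limma. Those that rose were Fbln5, Lox, Fbn1 and Mfap5, by 1.75-fold to 2.19-fold in mean TPM. The filter of at least 1 TPM in 3 libraries was met for Mfap5, the gene at 2.19-fold, only through its level in Gata2cKO. In the same fit, 5.73% of the 12300 tested genes rose, 1.74% fell and 7.47% passed in either direction. At an unadjusted p under 0.05, 5 of the 10 were higher and 1 lower, beside 19.2% and 8.17% of all tested genes. The median log2 fold change of the 10 genes was 0.29, beside 0.05 over all tested genes. The count that rose was 2 when either Gata2cKO replicate 1 or Gata2cKO replicate 2 was left out, where 87 and 148 of all tested genes rose. The most abundant members, Mfap4 and Mfap2, had the only negative log2 fold changes. Both passed when control replicate 1 was left out, where 431 of all tested genes fell. The authors' deposited table called 6 of the 10, with 5 higher and 1 lower, where it called 13.3% of all listed genes (6.69% higher and 6.58% lower).

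**Figure D1:**
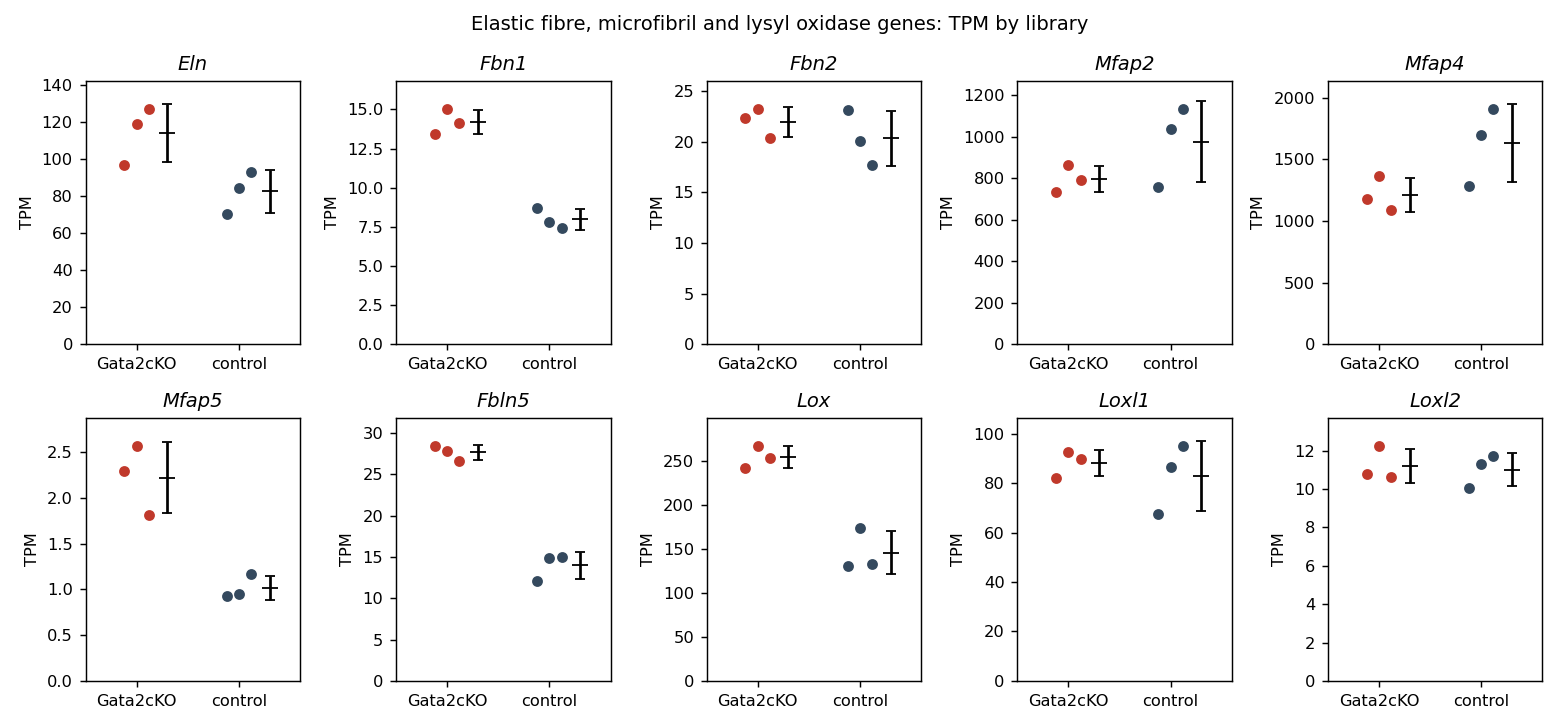
TPM (vertical axes, each starting at 0) of the 10 genes in the 3 Gata2cKO libraries (red, replicates 1 to 3 from left to right) and the 3 control libraries (dark blue, likewise), with the mean and SD in black. For Eln, Fbn1, Mfap5, Fbln5 and Lox every Gata2cKO point lies above every control point, and for the other 5 genes the groups overlap.

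Of the scaffold and core proteins, the fibrillin gene Fbn1 rose, Eln was higher in every Gata2cKO library without passing the test, and the fibrillin gene Fbn2 overlapped between groups. Fbn1 (ENSMUSG00000027204, chromosome 2, 125300594 to 125507993, minus strand, GRCm38) encodes fibrillin-1, the main fibrillin of postnatal microfibrils. Its level was 13.5, 15.01 and 14.1 TPM in Gata2cKO replicates 1, 2 and 3, against 8.71, 7.81 and 7.40 TPM in control replicates 1, 2 and 3. The lowest Gata2cKO library lay well above the highest control. Mean TPM was 1.78-fold higher, a log2 fold change of 0.76 (SE 0.09, limma adjusted p = 0.00901), and Fbn1 still passed whichever of the 6 libraries was left out (highest adjusted p = 0.0444).

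Fbn2 (ENSMUSG00000024598, chromosome 18) encodes fibrillin-2, which is known for its high level in the embryo. It was at 22.4, 23.2 and 20.3 TPM in Gata2cKO replicates 1 to 3, against 23.1, 20.1 and 17.7 TPM in control replicates 1 to 3. The groups overlapped, with a log2 fold change of 0.11 (95% interval -0.14 to 0.37, limma adjusted p = 0.550). Fbn2 was therefore more abundant than Fbn1 in all 6 libraries, by a narrower margin in Gata2cKO. Fbn1 made up 37.6%, 39.3% and 41.0% of the summed fibrillin TPM in Gata2cKO replicates 1 to 3, against 27.4%, 28.0% and 29.4% in control replicates 1 to 3. The means were 39.3% ± 1.71 and 28.3% ± 1.06 (SD, n = 3 each), 11.02 percentage points apart, with a two-sided exact permutation p = 0.1, the smallest that 3 against 3 can give. Such a share is taken within a library, so it does not depend on how libraries are scaled to each other.

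Eln (ENSMUSG00000029675, chromosome 5, 134702593 to 134747323, minus strand) encodes tropoelastin, the elastic core. It was at 96.9, 119 and 127 TPM in Gata2cKO replicates 1 to 3, against 70.4, 84.2 and 93.2 TPM in control replicates 1 to 3. The groups did not overlap, but the lowest Gata2cKO library was only slightly above the highest control. The means were 114 ± 15.7 and 82.6 ± 11.5 TPM (SD, n = 3 each), with a log2 fold change of 0.46 (SE 0.14, 95% interval 0.15 to 0.78, limma adjusted p = 0.0802). The authors' deposited table gives Eln a log2 fold change of 0.41 with an adjusted p of 0.0163, so this gene is past the threshold there and not in limma.

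The microfibril-associated genes did not move alike. Mfap5 (ENSMUSG00000030116, chromosome 6, 122505845 to 122529290, plus strand) encodes the fibrillin-binding glycoprotein MAGP-2. Its level was 2.29, 2.57 and 1.81 TPM in Gata2cKO replicates 1 to 3, against 0.930, 0.946 and 1.17 TPM in control replicates 1 to 3. All Gata2cKO values were above all control values, at a level near the bottom of the tested range, with 1.47% of tested genes below it in controls. Of the controls only replicate 3 reached 1 TPM, so Mfap5 was tested only through its level in Gata2cKO. The ratio of mean TPM was 2.19, and limma gave a log2 fold change of 0.67 (SE 0.11, adjusted p = 0.0192) on the log2(TPM + 1) scale, which compresses so low a gene. With 0.1 added in place of 1 the log2 fold change was 1.05 (adjusted p = 0.0195). The call was lost without Gata2cKO replicate 1, Gata2cKO replicate 2 or control replicate 2 (adjusted p = 0.0877, 0.0597 and 0.0669).

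Mfap2 (ENSMUSG00000060572, chromosome 4, 141010418 to 141015984, plus strand) encodes MAGP-1, the close relative of MAGP-2. It was at 734, 861 and 793 TPM in Gata2cKO replicates 1 to 3, against 757, 1035 and 1132 TPM in control replicates 1 to 3. The overlap came from control replicate 1, since the other controls lay above every Gata2cKO library. The log2 fold change was -0.27 with all libraries (95% interval -0.63 to 0.08, limma adjusted p = 0.293) and -0.45 without control replicate 1 (adjusted p = 0.0226). Mfap5 supplied 0.311%, 0.297% and 0.228% of the summed Mfap2 and Mfap5 TPM in Gata2cKO replicates 1 to 3, against 0.123%, 0.0913% and 0.103% in control replicates 1 to 3. Thus Mfap2 remained the predominant transcript of the pair in every library, and the difference of 0.173 percentage points had an exact permutation p = 0.1.

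Mfap4 (ENSMUSG00000042436, chromosome 11, 61485431 to 61488900, plus strand) encodes a fibrinogen-domain glycoprotein that binds elastin and fibrillin-1. It was the most abundant of the 10 genes, at 1177, 1366 and 1091 TPM in Gata2cKO replicates 1 to 3, against 1286, 1701 and 1907 TPM in control replicates 1 to 3. Again control replicate 1 was the low control and lay within the range of Gata2cKO. Its log2 fold change was -0.42 with all libraries (95% interval -0.79 to -0.05, limma adjusted p = 0.143) and -0.58 without control replicate 1 (adjusted p = 0.0191). When each library was rescaled without mitochondrially encoded genes, Mfap4 was at 1389, 1575 and 1265 TPM in Gata2cKO replicates 1 to 3, against 1650, 2034 and 2225 TPM in control replicates 1 to 3. On that scale the groups did not overlap, but Mfap4 still did not pass (limma adjusted p = 0.0686). The authors' deposited table gives Mfap4 a log2 fold change of -0.49 with an adjusted p of 0.00348, and Mfap2 one of -0.35 with an adjusted p of 0.0546.

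Fbln5 had the highest log2 fold change of the 10 genes on the log2(TPM + 1) scale, and Mfap5 had the higher one with 0.1 added (1.05, against 0.98 for Fbln5), in the ratio of mean TPM and in the authors' deposited table (1.06, against 0.92 for Fbln5). Fbln5 encodes fibulin-5 (gene ENSMUSG00000021186, chromosome 12, 101746565 to 101819055, minus strand), which binds tropoelastin, fibrillin-1 and lysyl oxidase-like enzymes and is required for elastic fibre formation in mice. Its level was 28.5, 27.9 and 26.7 TPM in Gata2cKO replicates 1 to 3, against 12.1, 14.9 and 15.03 TPM in control replicates 1 to 3. The libraries of each group lay close together and the groups were far apart. The means were 27.7 ± 0.911 and 14.02 ± 1.64 TPM (SD, n = 3 each), a 1.97-fold difference, with a log2 fold change of 0.94 (SE 0.10, limma adjusted p = 0.00739). Fbln5 passed whichever library was left out (highest adjusted p = 0.0435, without Gata2cKO replicate 1).

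The start-site sequence of Fbln5, a member that passed whichever library was left out, is shown beside that of Mfap2, a member that did not pass with all libraries. Promoter windows of 300 bases from RefSeq (GRCm38.p6) were matched for 3 of the 10 genes, Fbn1, Fbln5 and Mfap2, in 5 windows. Each sequence below is 150 bases upstream of an annotated start, on the gene's strand, read 5′ to 3′, and capitals mark a GC box (GGGCGG or its reverse complement). The Fbln5 stretch is chr12:101819120-101819269 on the minus strand and the Mfap2 stretch is chr4:141010268-141010417 on the plus strand.
Fbln5: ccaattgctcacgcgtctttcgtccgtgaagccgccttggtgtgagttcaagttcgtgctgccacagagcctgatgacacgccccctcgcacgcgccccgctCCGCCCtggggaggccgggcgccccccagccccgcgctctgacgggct
Mfap2: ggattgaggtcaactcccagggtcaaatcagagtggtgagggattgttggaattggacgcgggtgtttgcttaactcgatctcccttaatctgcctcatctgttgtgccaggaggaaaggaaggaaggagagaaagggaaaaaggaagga
Both are at the outermost start of their gene. The Fbln5 stretch was 70.0% G or C and held 1 GC box, and the Mfap2 stretch was 49.3% G or C and held 0. That order depends on the start: the windows at the outermost starts were 65.7% G or C for Fbln5 and 52.0% for Mfap2, and those at the inner starts 48.7% for Fbln5 and 68.0% for Mfap2. A GATA motif (AGATAA or AGATAG or TGATAA or TGATAG on either strand) was in 0 of the 5 windows of these genes, where 29.8% of the 32851 promoter windows hold one. A GC box was in 3 of the 5, beside 35.7% of all windows, and the TATA box TATAAA was in 0 of the 5, beside 13.6%. A match or its absence describes the letters of these windows only.

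Among the crosslinking enzymes Lox rose, while Loxl1 and Loxl2 overlapped between groups. Lox (ENSMUSG00000024529, chromosome 18) encodes lysyl oxidase, which acts on collagen and elastin. It was at 243, 268 and 255 TPM in Gata2cKO replicates 1 to 3, against 130, 174 and 134 TPM in control replicates 1 to 3. Each Gata2cKO library was far above the highest control, replicate 2. Mean TPM was 1.75-fold higher, a log2 fold change of 0.81 (SE 0.12, limma adjusted p = 0.0136). The call was lost without any one of the Gata2cKO replicates 1, 2 and 3 (adjusted p = 0.0556, 0.0530 and 0.0588), where the log2 fold change stayed between 0.78 and 0.85, and it was kept without each control.

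Loxl1 (ENSMUSG00000032334, chromosome 9, 58287738 to 58313186, minus strand) encodes the relative of lysyl oxidase that is known for elastin upkeep in adult mice. It was at 82.2, 92.6 and 89.6 TPM in Gata2cKO replicates 1 to 3, against 67.4, 86.6 and 95.1 TPM in control replicates 1 to 3. The controls spanned the whole range of Gata2cKO, and the log2 fold change was 0.10 (95% interval -0.21 to 0.40, limma adjusted p = 0.668). Without control replicate 1 it was -0.04 (adjusted p = 0.759). Loxl2 (ENSMUSG00000034205, chromosome 14, 69609068 to 69695834, plus strand) encodes an enzyme known for collagen IV crosslinking. Its level was 10.8, 12.2 and 10.6 TPM in Gata2cKO replicates 1 to 3, against 10.04, 11.3 and 11.7 TPM in control replicates 1 to 3. The log2 fold change was 0.02 (95% interval -0.20 to 0.24, limma adjusted p = 0.904), and its sign turned with the scaling between libraries and without control replicate 1 (-0.04) or Gata2cKO replicate 2 (-0.04).

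Within the family of 5 lysyl oxidase genes (Lox, Loxl1, Loxl2, Loxl3 and Loxl4), Lox supplied 64.1%, 63.8% and 65.2% of the summed TPM in Gata2cKO replicates 1 to 3, against 52.7%, 55.2% and 46.9% in control replicates 1 to 3. The means were 64.4% ± 0.724 and 51.6% ± 4.27 (SD, n = 3 each). The groups did not overlap, with a difference of 12.8 percentage points and a two-sided exact permutation p = 0.1, the smallest this design allows. With the shares of Fbn1 and Mfap5, 3 such shares were tested, and their p-values are given without adjustment over the 3. Loxl3, a relative that was not among the 10 genes, was at means of 41.4 and 42.1 TPM in Gata2cKO and control, and Loxl4 at 0.503 and 0.390 TPM.

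**Figure D2:**
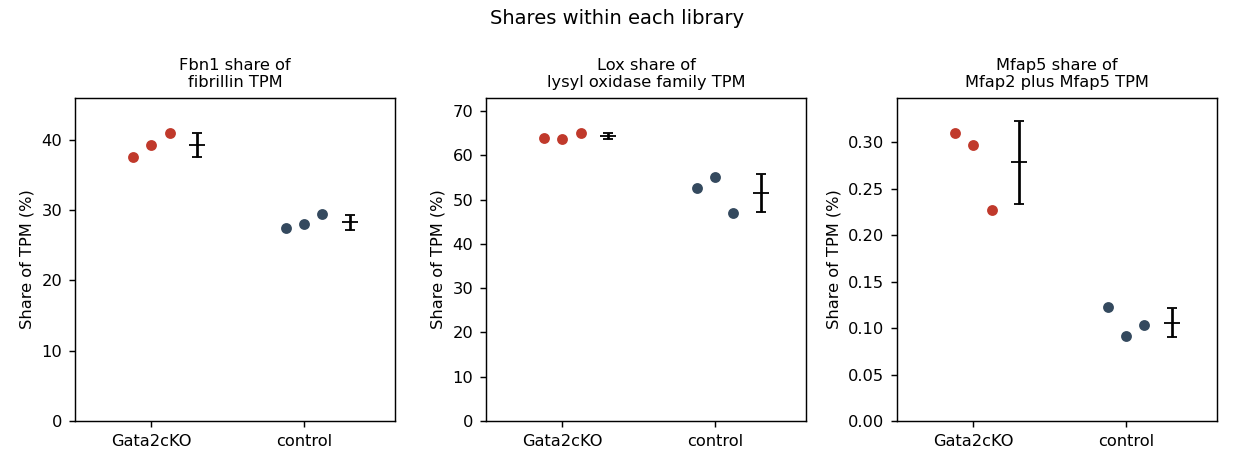
Share of TPM (%, vertical axes starting at 0) within each Gata2cKO library (red) and control library (dark blue), with the mean and SD in black, for Fbn1 among the fibrillins, Lox among 5 lysyl oxidase genes, and Mfap5 among Mfap2 and Mfap5. In each panel the 3 Gata2cKO points lie above the 3 control points, with mean shares of 39.3% and 28.3%, 64.4% and 51.6%, and 0.279% and 0.106% in Gata2cKO and control.

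The order of the levels differed between groups for a few neighbours. In controls the mean TPM ran from Mfap4 (1631) and Mfap2 (975) through Lox (146), Loxl1 (83.0), Eln (82.6), Fbn2 (20.3), Fbln5 (14.02), Loxl2 (11.02) and Fbn1 (7.98) to Mfap5 (1.02). Of these neighbours, Loxl1 and Eln did not differ beyond their spread. In Gata2cKO Fbln5 was above Fbn2, with ratios of 1.27, 1.20 and 1.31 in replicates 1 to 3, against 0.524, 0.742 and 0.847 in control replicates 1 to 3. Fbn1 was above Loxl2 in Gata2cKO, with ratios of 1.25, 1.23 and 1.33, against 0.868, 0.690 and 0.633 in controls. Eln was 1.18, 1.29 and 1.42 times Loxl1 in Gata2cKO replicates 1 to 3, against 1.05, 0.973 and 0.980 times in control replicates 1 to 3. The summed TPM of the 10 genes, mostly Mfap4 and Mfap2, was 2411, 2788 and 2429 in Gata2cKO, against 2366, 3136 and 3413 in controls, and overlapped.

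In all, 5 of the 10 genes had every Gata2cKO value above every control value, where 23.4% of the tested genes did, and 0 of the 10 had every value below, where 10.5% did (33.9% in either direction). Mfap5, tested only through its level in Gata2cKO, is among the 5.

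**Figure D3:**
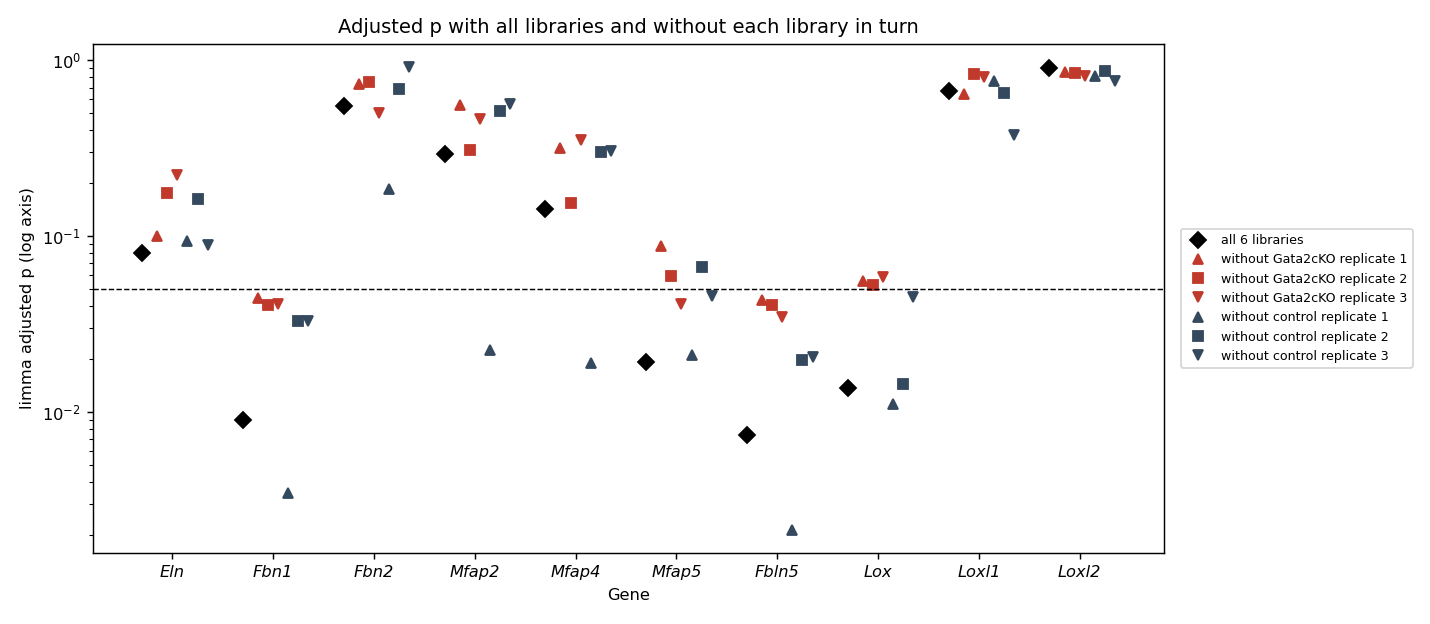
Adjusted p from limma (log axis) for each gene with all 6 libraries (black) and without each Gata2cKO (red) or control (dark blue) replicate, with a dashed line at 0.05. Fbn1 and Fbln5 stay under the line in each of the 6 removals, Lox and Mfap5 cross it in 3 each, and Mfap2 and Mfap4 fall under it only without control replicate 1.

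Other genes of fibre assembly, crosslinking, copper supply and matrix turnover were counted as a list of 37, of which 34 were in the table and 31 were tested. The list also holds Mfap3 and Mfap3l, which share a name with the Mfap members and whose part in elastic fibres is not addressed here. Of these 31 genes 5 rose and 0 fell in limma, beside the 5.73% and 1.74% of all tested genes. At an unadjusted p under 0.05 the counts were 12 higher and 3 lower, beside 19.2% and 8.17% of all tested genes. Of the 12, Mmp9 was under 1 TPM in every control and was tested only through its level in Gata2cKO. Over the 31 genes the median log2 fold change was 0.11, with values from -0.49 to 1.17. The authors' deposited table called 9 of the 34 listed genes higher and 5 lower, where it called 6.69% of all listed genes higher and 6.58% lower. Postn, a matricellular protein that helps bring lysyl oxidase activity to collagen, rose to 399, 354 and 379 TPM in Gata2cKO replicates 1 to 3, against 175, 184 and 143 TPM in control replicates 1 to 3 (limma adjusted p = 0.00440). Ltbp1, which encodes a protein that tethers latent TGF-beta to fibrillin microfibrils, was at 8.53, 8.96 and 9.20 TPM in Gata2cKO, against 4.79, 5.08 and 4.997 TPM in controls. It rose by 0.73 on the log2 scale (SE 0.08, limma adjusted p = 0.00739). Postn and Ltbp1 passed whichever library was left out. The other Ltbp genes of the list, named after their values were seen, overlapped between groups and did not pass. Ltbp2, Ltbp3 and Ltbp4 averaged 3.26, 190 and 104 TPM in Gata2cKO, against 3.10, 184 and 126 TPM in controls. The authors' deposited table called Ltbp4 lower (adjusted p of 0.0280) and did not call Ltbp2 or Ltbp3.

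Emilin2, which encodes a glycoprotein of the EMILIN family found with elastic fibres, was at 3.71, 4.68 and 4.56 TPM in Gata2cKO, against 2.14, 2.37 and 2.41 TPM in controls (log2 fold change 0.68, limma adjusted p = 0.0139). Atp7a, the copper pump that loads copper onto secreted enzymes such as lysyl oxidase, was at 2.29, 2.702 and 2.55 TPM in Gata2cKO, against 1.35, 1.23 and 1.16 TPM in controls (log2 fold change 0.64, limma adjusted p = 0.0122). Neither overlapped between groups, and both were at low levels. The far more abundant Emilin1, named after its values were seen, overlapped. Its means were 760 and 722 TPM in Gata2cKO and control (limma adjusted p = 0.778). Mfap3l was at 4.43, 4.02 and 3.96 TPM in Gata2cKO, against 3.03, 1.87 and 1.84 TPM in controls (log2 fold change 0.68, limma adjusted p = 0.0357). Without 1 library, Emilin2 lost its call in 2 of 6 removals (highest adjusted p = 0.0598), Atp7a in 1 (0.0508) and Mfap3l in 5 (0.131). Without control replicate 1, 10 of the 31 rose and 2 fell, where 1108 and 431 of all 12300 tested genes did. Mmp9, tested only through its level in Gata2cKO, was among the 10. The 2 that fell were Adamts10 and Bmp1. The product of Bmp1 cleaves the lysyl oxidase precursor, and its log2 fold change was -0.38 (limma adjusted p = 0.0441), against -0.26 (0.232) with all libraries. The number of related genes that rose was 3 and 2 without Gata2cKO replicates 2 and 3, where 148 and 160 of all tested genes rose.

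Of the other fibulins in that list, Fbln2, named here after its values were seen, had every Gata2cKO value above every control, with means of 54.1 and 35.8 TPM, and an adjusted p of 0.0506 in limma (0.0154 without control replicate 1). Efemp2, the gene of fibulin-4, which pairs lysyl oxidase with tropoelastin, was also named after its values were seen. It had means of 180 and 185 TPM in Gata2cKO and control (log2 fold change -0.04, limma adjusted p = 0.867). Fbln1 and Fbln7 overlapped between groups (limma adjusted p = 0.701 and 0.634). Efemp1 was higher without overlap, by a small margin, with means of 7.62 and 5.87 TPM in Gata2cKO and control. Its limma adjusted p was 0.148, and 0.0370 without control replicate 1.

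Of the 31 tested related genes, 3 had a negative log2 fold change at an unadjusted p under 0.05. That share is near the 8.17% of all tested genes, so the count does not set the list apart. These were Adamts10, Adamtsl2 and Thsd4, also named after their values were seen. Their products are secreted proteins of the ADAMTS and ADAMTS-like families that bind fibrillin-1. Adamts10 was at 80.8, 95.3 and 78.2 TPM in Gata2cKO replicates 1 to 3, against 95.2, 123 and 131 TPM in control replicates 1 to 3 (log2 fold change -0.44, limma adjusted p = 0.0860). The groups overlapped by a small margin, at Gata2cKO replicate 2 and control replicate 1, and without that control Adamts10 fell by 0.58 on the log2 scale (adjusted p = 0.0149). Adamtsl2 averaged 1.93 and 3.10 TPM and Thsd4 averaged 1.85 and 2.48 TPM in Gata2cKO and control, both without overlap, and neither passed (limma adjusted p = 0.0879 and 0.122). In the authors' deposited table these 3 genes were lower, with adjusted p-values of 0.000584, 0.0226 and 0.000417. Adamts17 and Adamtsl4, the other members of these families in the list, averaged 0.657 and 10.4 TPM in Gata2cKO and 0.385 and 11.8 TPM in controls. Adamts17, too low to be tested in limma, was higher without overlap and was called higher by the authors (adjusted p of 7.66e-05). Adamtsl4 overlapped between groups and was not called by them (adjusted p of 0.531).

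**Figure D4:**
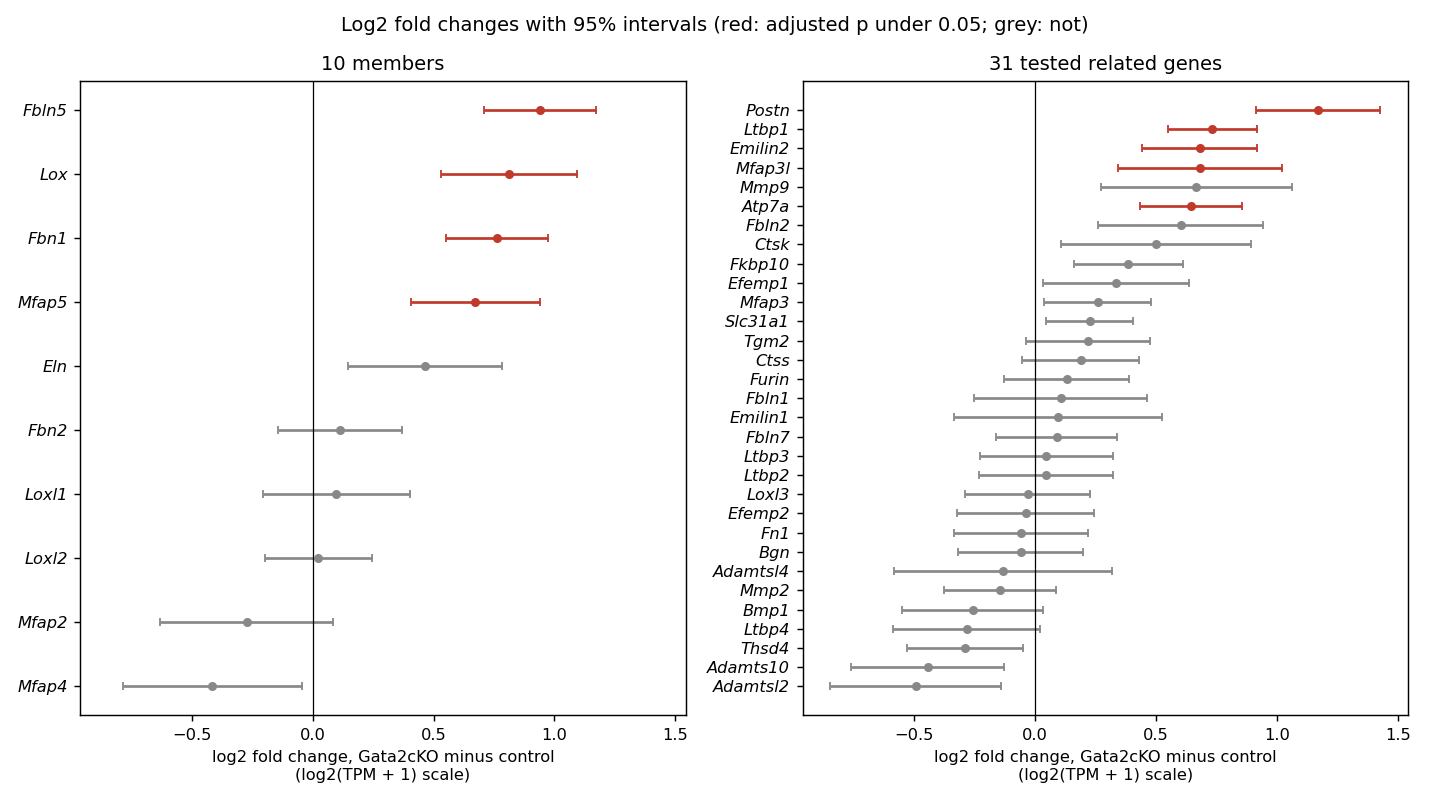
Difference between Gata2cKO and control means of log2(TPM + 1), Gata2cKO minus control, with 95% intervals for the 10 genes (left) and the 31 tested related genes (right). Red marks the 4 and 5 genes with a limma adjusted p under 0.05, all of them to the right of 0.

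Among the genes whose TPM pattern over the 6 libraries was most like that of Fbn1, by Pearson correlation of log2(TPM + 1), were Ulk2 (r = 0.998), Fam20b (0.998), Pak2 (0.998) and Scn3b (0.997). For Eln they were Rbm45 (0.997), Sox17 (0.993), Pycrl (0.993), Yif1b (0.992) and Lcmt2 (0.991). With 6 libraries in 2 groups, 23 genes outside the lists had an r above 0.99 with Fbn1 and 5 with Eln, and all points share the difference between groups and the scaling of each library. The 4 named for Fbn1 each passed the limma test (adjusted p from 0.0107 to 0.0435), and of the 5 nearest to Eln 0 did.

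Markers of several cell types moved with the groups, and in whole tissue fewer cells of a type and less RNA per cell cannot be told apart. Marker counts, here and in the next paragraph, are at a limma adjusted p under 0.05, where 5.73% of all tested genes rose and 1.74% fell. Smooth muscle markers, from cells that also make elastic fibres, summed to 811 to 895 TPM in Gata2cKO, against 1042 to 1156 TPM in controls, with 0 of 8 tested markers higher and 3 lower. Those 3 were Myh11, Acta2 and Myl9, while Tagln, Cnn1, Des and Actg2 overlapped between groups. Lmod1, too low to be tested, was higher in every Gata2cKO library (means of 0.702 and 0.306 TPM in Gata2cKO and control). Fibroblast and mesenchyme markers summed to 10306 to 12641 TPM in Gata2cKO, against 9033 to 10893 TPM in controls, with 1 of 12 higher (Col3a1) and 1 lower (Tcf21). Endothelial markers summed to 416 to 454 TPM in Gata2cKO, against 320 to 381 TPM in controls, with 3 of 10 higher and 0 lower. Mesothelial markers summed to 557 to 649 TPM in Gata2cKO, against 342 to 443 TPM in controls, with 3 of 6 higher and 0 lower.

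Markers of the Wolffian duct epithelium summed to 1135 to 1161 TPM in Gata2cKO, against 885 to 995 TPM in controls, with 2 of 9 higher (Epcam and Cldn4). Most of that sum came from Krt18, Krt8 and Cldn4, with means of 349, 267 and 243 TPM in Gata2cKO and 321, 231 and 160 TPM in controls. Pax8, at means of 3.84 and 3.74 TPM, and Pax2 added little to it. Pax2, Pax8, Krt18 and Lhx1 overlapped between groups, with a negative log2 fold change for Lhx1 (-0.43, limma adjusted p = 0.212), and Ret was too low to be tested. Mast cell markers summed to 272 to 297 TPM in Gata2cKO, against 97.0 to 140 TPM in controls, with 3 of 5 higher. Macrophage markers summed to 397 to 447 TPM in Gata2cKO, against 328 to 402 TPM in controls, with 1 of 7 higher. Markers of cartilage and bone, tissues rich in fibrillin and lysyl oxidase, summed to 33.1 to 44.6 TPM in Gata2cKO, against 36.1 to 44.1 TPM in controls, with 0 of 4 past the threshold. None of the tested markers of these 4 types fell past the threshold in limma (1 mast cell marker had a negative log2 fold change at an unadjusted p under 0.05). The mast cell marker Fcer1a and the cartilage markers Acan and Matn1 were not analysed here. The part of these cell types in the values of the 10 genes was not tested.

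**Figure D5:**
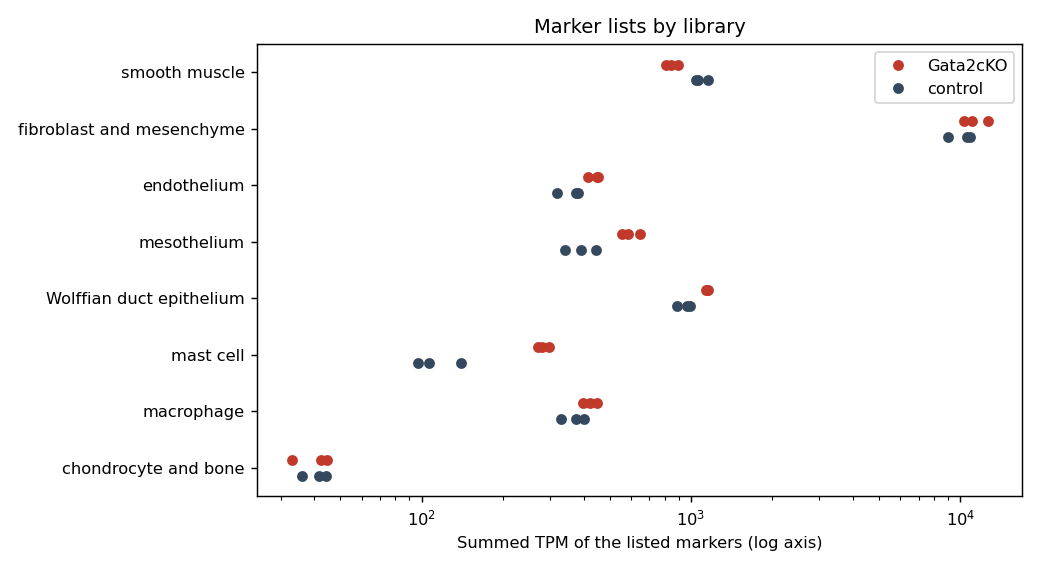
Summed TPM of each marker list (log axis) in the 3 Gata2cKO (red, upper row of each pair) and 3 control (dark blue, lower row) libraries. The smooth muscle sum is lower in every Gata2cKO library, the fibroblast, macrophage, and cartilage and bone sums overlap, and the other 4 sums are higher in every Gata2cKO library.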

How the data were processed

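RNA from 3 Gata2cKO and 3 control mesonephroi was measured by poly(A) RNA-seq, per the labels' protocols. The deposited gene values were taken to be TPM made by the authors, since each library sums to between 997351 and 998844. Per the submitters' processing notes, the tools were STAR 2.7.11a, DESeq and DESeq2 and the build GRCm38, without their roles. The sources used here do not give strand, quantifier or gene filter, and antisense and overlapping genes cannot be told apart. The authors' deposited table also holds their log2 fold changes and p-values, raw and adjusted.

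Genes with at least 1 TPM in 3 or more of the 6 libraries (12300 of 14366) were fitted with limma 3.58.1 in R 4.3.3 (limma-trend on log2(TPM + 1), group as the sole term), with Benjamini-Hochberg adjustment over all of them and a threshold of 0.05. The fit was also run on simulated data, drawn for each gene independently and without library effects. That run cannot address a shift such as that of control replicate 1. Log2 fold changes are Gata2cKO minus control and understate low genes. Shares were compared by exact permutation tests. Columns were matched to samples by library name, and positions come from GENCODE M21 (GRCm38). TPM keeps no read depth, so no counting interval is given. The 10 genes, all lists and the rules were chosen with earlier results of these data known. All 10 genes are reported, with each related gene past the threshold. The 5 genes most like Fbn1 and Eln in pattern were also taken, and 1 of them is not reported here. Alternatives were another pseudocount, no filter, 3 scalings, no mean trend, a replicate block and leaving out each library.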

Additional observations from a re-analysis of the deposited data

How the results depend on the processing

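With all 6 libraries, 919 genes passed, 705 higher and 214 lower in Gata2cKO (76.7% higher). The split was 55.8% higher with median-of-ratios scaling (502 and 397), 62.8% with upper-quartile scaling and 60.5% without mitochondrial genes in the total. Leaving out 1 library gave 116 to 1539 genes, fewest without Gata2cKO replicate 1 and most without control replicate 1. Over the same removals, 2 to 4 of the 10 genes rose and 0 to 2 fell, and 2 to 10 of the related genes rose and 0 to 2 fell. The number of related genes that fell was 1 with upper-quartile scaling, without mitochondrial genes and with the replicate block. The log2 fold change of Loxl2 turned negative with median-of-ratios scaling (-0.0324), upper-quartile scaling (-0.0158) and without mitochondrial genes (-0.0337), and ranged from -0.0377 to 0.0637 over the removals. That of Loxl1 ranged from -0.0431, without control replicate 1, to 0.202. The cause of these shifts was not tested. The other 8 genes kept their sign under all 13 alternatives.

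To look for pairing, the mean of its group was subtracted from each log2(TPM + 1) value, gene by gene. What remained had correlations across genes of 0.25, -0.07 and 0.04 between same-numbered samples. Differently numbered ones had -0.28 to 0.21. What remains in a group cancels for each gene, so these correlations depend on each other and are not those of the levels themselves. The samples numbered 1 had the highest of all these values, but the other same-numbered samples lay within the range of the rest. The numbers were not taken as pairs in the main fit. With the replicate block 774 genes passed, and 5 of the 10 genes rose, Eln among them (adjusted p = 0.0295), with 0 lower, and 7 related genes rose. For the shares of Fbn1, Lox and Mfap5, pairing by number cannot move the differences of 11.02, 12.8 and 0.173 percentage points, and the exact sign-flip p was 0.25 for each, the smallest that 3 pairs can give. The difference in the Fbn1 share ranged from 10.2 to 11.9 points over the removals, that of Lox from 10.4 to 14.6 and that of Mfap5 from 0.157 to 0.198. Depth is unknown, so how far it limits Mfap5, at 0.930 to 2.57 TPM, cannot be stated.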
